A study of Mus musculus with 6 samples.

Results

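F-box proteins and cullins are the substrate receptors and scaffolds of a large family of ubiquitin ligases, and their mRNAs were examined in RNA-Seq of fully-grown mouse oocytes (FGOs) with and without LSM14B. The group holds 69 of the 24255 genes of the deposited table. They were taken by symbol alone, as the genes named Fbxl, Fbxo or Fbxw with a number and Cul with a number, and comprise 8 cullins, 8 Fbxw, 18 Fbxl and 35 Fbxo genes. The pattern matched 85 symbols, of which Fbxo5, Fbxo43 and the oocyte paralogs numbered Fbxw13 to Fbxw28 were left out, 16 genes in all. F-box proteins whose symbols follow another pattern, such as Btrc, Skp2 and Ccnf, are counted among the partner genes below.

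Both groups were oocytes at the germinal vesicle (GV) stage, which have completed growth and rest in prophase of the first meiosis. One group came from wild type (WT) mice and the other from Lsm14b-KO mice, homozygous for the reporter-tagged insertion allele Lsm14b tm1a(KOMP)Mbp. Per the study's methods the allele was kept on a C57BL/6J background. The insertion is present in every cell of the animal, so that the oocytes also grew in Lsm14b-KO follicles. All females, WT and Lsm14b-KO alike, had received 5 IU of PMSG, a gonadotropin that drives follicle growth, 46 h before collection. Their age is not given in the labels. A library pooled 20 oocytes, and each genotype had 3 libraries, 6 in total. Nothing states that the 3 libraries of a genotype came from separate animals, and p-values then measure only the spread between these libraries, which may be technical.

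In a cullin-RING ligase the cullin is a rigid scaffold that carries a RING protein, RBX1 or RNF7, at its C-terminal end and a substrate adaptor at its N-terminal end. CUL1 binds SKP1, which binds the F-box of an F-box protein, and together they form the SCF ligase, in which the F-box protein selects the substrate. FBXW proteins read substrates through WD40 repeats, FBXL proteins through leucine-rich repeats, and FBXO proteins through other domains. Attachment of the ubiquitin-like protein NEDD8 activates the cullin, and the COP9 signalosome removes it. In oocytes such ligases are known for the timed degradation of cell cycle regulators and maternal proteins, while the mRNAs themselves are stored for use in meiosis and after fertilization.

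The values are FPKM, by definition the number of fragments per length of transcript, scaled to the library's mapped fragments. Whether the programs that computed them also rescaled the libraries was not established. Lsm14b, the targeted gene (chromosome 2, 180024987 to 180035465, plus strand; all coordinates are of GRCm38/mm10), stood at 2.77, 3.98 and 1.72 FPKM in the WT group. The Lsm14b-KO group, with 2 libraries listed at 0 and the third at 0.10 FPKM, was below every WT library, which fits the labels. All 12 oocyte markers examined were present at 1 FPKM or more in at least 1 library, but their levels moved with the libraries. Their sum was 57898 to 69377 FPKM in WT and, in replicate order, 84707, 35004 and 52924 FPKM in the Lsm14b-KO group. Most of this sum was Dppa3, at 34582 to 47684 FPKM in WT and at 63633, 19433 and 34753 FPKM in Lsm14b-KO libraries. Bmp15, Gdf9, Nlrp5, Padi6, Zp1, Zp2 and Zp3 were highest of all libraries in Lsm14b-KO replicate 2. Dppa3, Figla, H1foo, Ooep and Oosp1 were lowest there. Single markers went both ways, with Bmp15 at 183 to 380 FPKM in WT and at 204, 1482 and 611 FPKM in Lsm14b-KO libraries, and H1foo at 7575 to 8407 FPKM in WT and at 4962, 2909 and 3555 FPKM. Nlrp5 was at 29.3 and 34.2 FPKM in WT replicates 1 and 2, at 131 FPKM in WT replicate 3, and at 48.0, 423 and 144 FPKM in Lsm14b-KO libraries. Bmp15, H1foo and Nlrp5 were chosen after their values were seen. Of 14 granulosa and cumulus cell markers 8 were above 0, and Amh, Foxl2, Inhba, Ptx3, Slc38a3 and Tnfaip6 were at 0. Their summed level was 9.35 to 13.5 FPKM in WT and 5.59 to 9.63 FPKM in Lsm14b-KO libraries. Most of this sum was Cyp19a1, at 8.26 to 11.5 FPKM in WT and 3.00 to 5.76 FPKM in Lsm14b-KO libraries. Of the 3 markers that reached 1 FPKM, the others did not follow it. Fshr was at 0.349 to 1.68 FPKM in WT and 1.82 to 2.07 FPKM in Lsm14b-KO libraries. Inha was at 0 to 0.204 FPKM in WT and 0.158 to 1.06 FPKM in Lsm14b-KO libraries. Of 5 theca and steroidogenic markers 2 were above 0, with sums of 0.0653 to 0.177 FPKM in WT and 0.498 to 0.857 FPKM in Lsm14b-KO libraries. They went opposite ways. Hsd3b1 was at 0 in WT and at 0.464 to 0.826 FPKM in Lsm14b-KO libraries. Star was at 0.0653 to 0.177 FPKM in WT and at 0.0310 to 0.0507 FPKM in Lsm14b-KO libraries. The red blood cell and leukocyte markers were at 0 throughout. The part of the marker levels in the results was not tested. The Lsm14b-KO libraries were unequal. Relative sequencing depth was not measured but estimated, from the commonest ratio of low FPKM values between a library and WT replicate 1. Such an estimate also takes up any rescaling of the libraries. Set to 1 in WT replicate 1, the estimate was 1.03 to 1.14 in the rest of the WT group. In Lsm14b-KO replicates 1, 2 and 3 it was 1.33, 1.95 and 2.17. Across the 6398 tested genes, the correlation with the WT mean was 0.958 in Lsm14b-KO replicate 1, against 0.881 and 0.927 in replicates 2 and 3. Members whose call changed without replicate 1 are therefore named, and for many of the genes described singly both fits are given.

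Of the 69 mRNAs, 31 reached 1 FPKM in at least 1 library and were tested. These were 5 of the 8 cullins, 2 of the 8 Fbxw, 6 of the 18 Fbxl and 18 of the 35 Fbxo genes. A further 30 were above 0 but under 1 FPKM in every library, and 8 were listed at 0 in all 6. By the mean over the 6 libraries, only 7 mRNAs stood at 10 FPKM or more, 17 lay between 1 and 10, and 37 lay above 0 and under 1. The 7 abundant ones were Cul1, Cul4b, Fbxo8, Fbxo34, Fbxo36, Fbxw4 and Fbxo30. In order of mean FPKM, Cul1 stood above all other members, and by group mean it ranked 1003 of the 6398 tested genes in WT and 518 in Lsm14b-KO oocytes. The next 5 by their mean in WT were Fbxo8 with 40.0 ± 1.87, Fbxw4 with 21.3 ± 3.18, Fbxo36 with 15.8 ± 0.481, Fbxo34 with 12.0 ± 1.32 and Cul4b with 8.61 ± 1.65 FPKM (SD, n = 3). Cul1 in WT, at 43.4 ± 10.8 FPKM (SD, n = 3), was above Fbxo8 by less than its own spread.

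**Figure D1:**
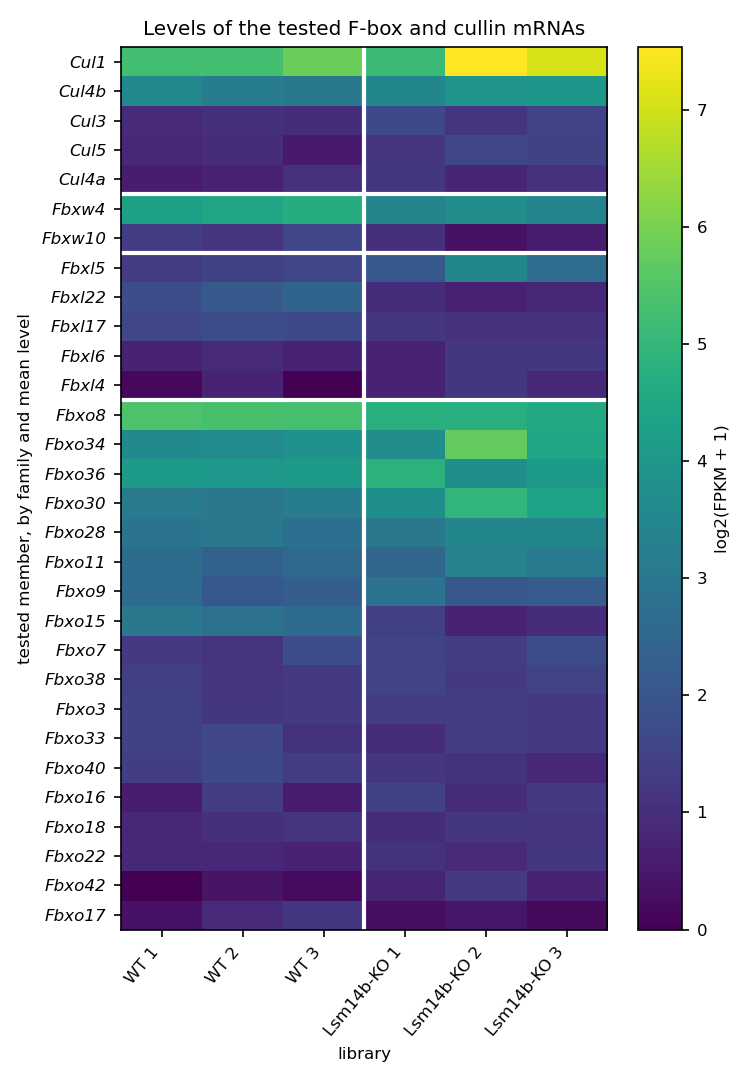
Levels of 30 of the 31 tested mRNAs as log2(FPKM + 1), with genes in rows, ordered by family and mean level, and the 6 libraries in columns. White lines separate cullins, Fbxw, Fbxl and Fbxo genes and the 2 genotypes. Most rows are dark, below 1 FPKM to a few FPKM, and the brightest cells are Cul1 in Lsm14b-KO replicates 2 and 3, at 185 and 136 FPKM.

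The genotypes were compared to ask which mRNAs differ in oocytes that lack LSM14B. In limma on log2(FPKM + 1), with p-values adjusted over all 6398 tested genes, 5 of the 31 tested members passed an adjusted p of 0.05, which is 16.1% against 21.6% of all tested genes. The SCF receptors Fbxl5 and Fbxo30 were higher in Lsm14b-KO oocytes, 2 of 31 members where 6.38% of all genes were higher. Fbxo15, Fbxl22 and Fbxw4 were lower, 3 of 31 where 15.2% of all genes were lower. At an unadjusted p under 0.05 there were 11 members (35.5%) and 39.4% of all tested genes. The groups did not overlap for 13 members (41.9%), of which 6 were above and 7 below WT. Among all tested genes the groups did not overlap for 45.0%, with 19.1% above and 26.0% below WT. The median log2 fold change was 0.17 over the 31 members and -0.075 over all tested genes. The members' shares thus lay near the background. Of the 31, 2 passed the filter only through the WT libraries (Fbxl22 and Fbxo17) and 6 only through the Lsm14b-KO libraries, so that their highest library had to be of that genotype.

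**Figure D2:**
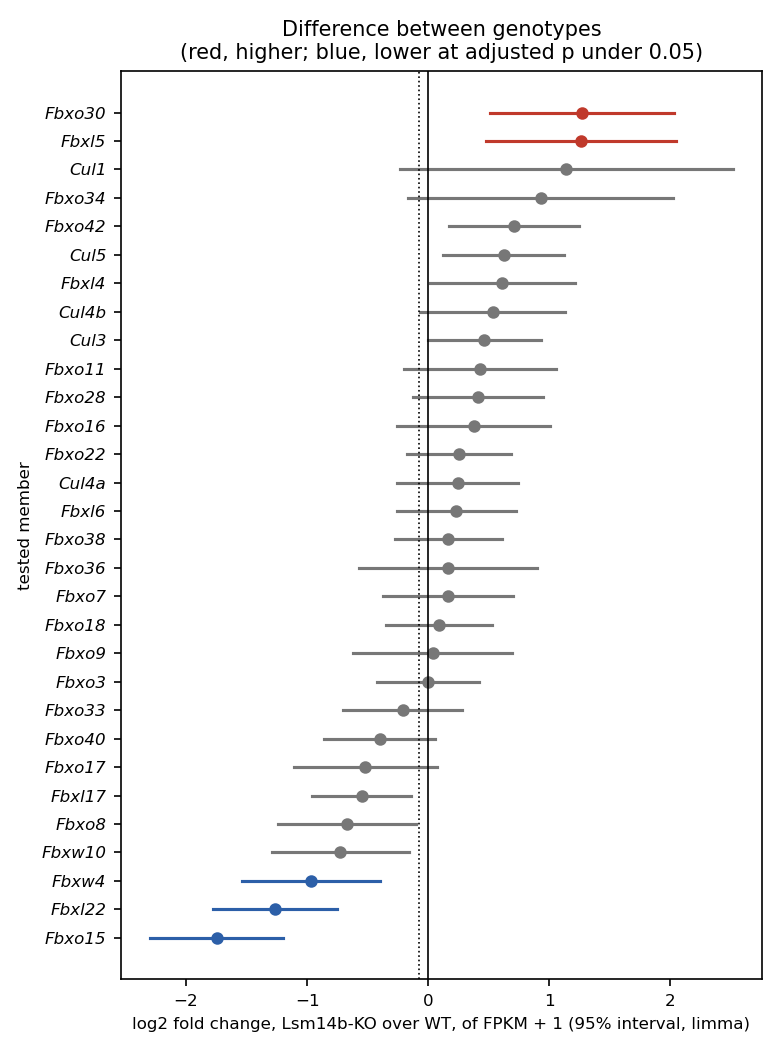
Fitted log2 fold change of FPKM + 1, Lsm14b-KO over WT, for 30 of the 31 tested members, with the 95% interval from limma. The dotted line is the median of all tested genes at -0.075. Fbxo30 and Fbxl5 (red) and Fbxw4, Fbxl22 and Fbxo15 (blue) passed an adjusted p of 0.05, whereas Cul1 at 1.14 has the widest interval. Under TPM scaling, which raised the median of all genes to 0.40, the values of Fbxo8, Fbxo40, Fbxo33 and Fbxo3 were above 0.

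Cul1, the scaffold of the SCF ligase (chromosome 6, 47453398 to 47526139, plus strand), had 37.0, 37.3 and 55.9 FPKM in WT. The Lsm14b-KO values, in the order of the replicates, were 34.1, 185 and 136 FPKM. Replicates 2 and 3 were above every WT library, while replicate 1 was below all of them, and the groups overlapped. The log2 fold change was 1.14 (95% interval -0.23 to 2.52) and was not called (adjusted p 0.185 in limma). Leaving out Lsm14b-KO replicate 1 raised it to 1.87, with an adjusted p of 0.0022 in limma. Over the other alternatives that left out 1 library the adjusted p ran up to 0.438. The gene overlaps an antisense annotation, A930035D04Rik, and the counting is not stated to use strand.

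The other cullins serve other adaptors. CUL3 takes BTB-domain proteins, CUL4A and CUL4B take DDB1 with its DCAF receptors, and CUL5 takes elongin with SOCS-box proteins. Cul4b (chromosome X, 38533274 to 38576196, minus strand) was the second most abundant cullin, with 10.4, 8.19 and 7.21 FPKM in WT and 10.0, 14.0 and 14.8 FPKM in Lsm14b-KO libraries. As for Cul1, replicates 2 and 3 were above the WT range, but replicate 1 lay within it. The log2 fold change was 0.53, which was not called (adjusted p 0.162 in limma), or 0.69 (adjusted p 0.0360) without replicate 1. Its paralog Cul4a was close to 1 FPKM, with 0.522, 0.654 and 1.09 in WT and 1.35, 0.766 and 1.10 in Lsm14b-KO libraries. Within a library Cul4b exceeded Cul4a by 6.64-fold to 20.0-fold, in WT and Lsm14b-KO oocytes alike, a ratio that no scaling of a library can change. Cul3 had 0.904, 1.06 and 0.974 FPKM in WT and 2.19, 1.24 and 1.85 FPKM in Lsm14b-KO libraries. All 3 Lsm14b-KO values were above the WT values, but the log2 fold change, 0.47, was not called (adjusted p 0.130 in limma). Cul5 had 0.796, 0.932 and 0.473 FPKM in WT and 1.20, 2.04 and 1.80 FPKM in Lsm14b-KO libraries. Its groups did not overlap either, and its adjusted p was 0.0725 in limma (log2 fold change 0.62), the lowest among the cullins. It passed the filter only through the Lsm14b-KO libraries, and it was called without replicate 1 (adjusted p 0.0236).

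None of the 5 tested cullins was therefore called, by limma with all 6 libraries, and 1 had an unadjusted p under 0.05. All 5 fitted log2 fold changes were positive, from 0.24 for Cul4a to 1.14 for Cul1, where 2997 of the 6398 tested genes had a positive value. They were also positive under TPM scaling, quantile normalization and the correction for length and GC content, all of which raise the median of all genes, and under that correction Cul4a at 0.092 lay below the median of 0.10. Under TPM scaling Cul3 was called (log2 fold change 0.87, adjusted p 0.0369 in limma). The 3 cullins that were not tested were Cul2, the scaffold used by the VHL receptor, Cul7, which pairs with FBXW8, and Cul9. Cul2 had 0.129, 0.565 and 0.313 FPKM in WT and 0.873, 0.430 and 0.445 FPKM in Lsm14b-KO libraries. Cul7 was at 0 except for 0.0245 FPKM in Lsm14b-KO replicate 2, and Cul9 was listed at 0 in all 6 libraries.

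**Figure D3:**
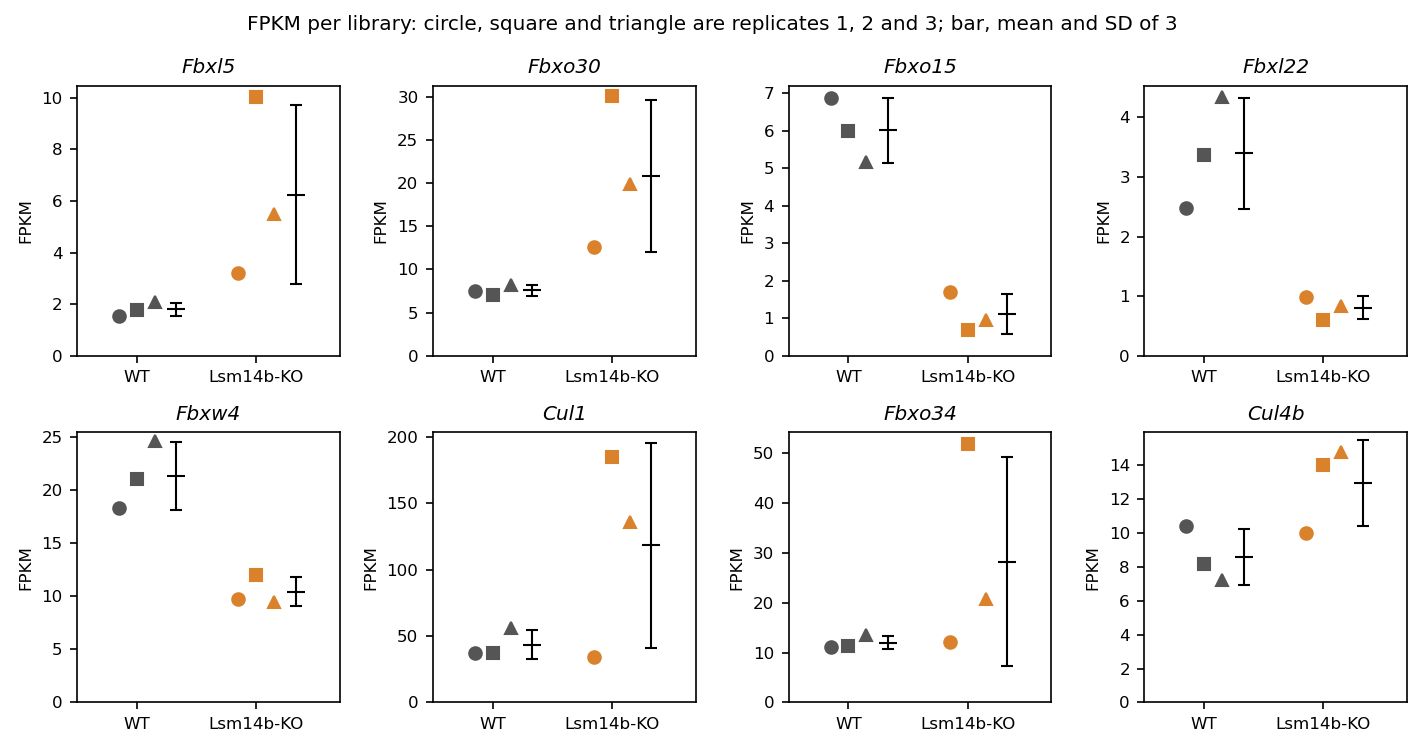
FPKM per library, each panel with its own axis from 0, for the 5 called members and for Cul1, Fbxo34 and Cul4b. Circles, squares and triangles are replicates 1, 2 and 3, and bars are the mean and SD of 3 libraries. For the called members all Lsm14b-KO points lie on one side of the WT points, whereas for Cul1, Fbxo34 and Cul4b replicate 1 lies among or below the WT points.

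Fbxo30 encodes an F-box protein linked to the turnover of the spindle kinesin EG5 (chromosome 10, 11281330 to 11298052, plus strand, with no overlapping gene). It had 7.54, 6.99 and 8.22 FPKM in WT and 12.6, 30.1 and 19.9 FPKM in Lsm14b-KO libraries. Every Lsm14b-KO library exceeded every WT library, although the Lsm14b-KO values spread far more. The group means were 7.58 ± 0.614 and 20.8 ± 8.79 FPKM (SD, n = 3), a ratio of 2.75, and the log2 fold change was 1.27 (95% interval 0.51 to 2.03, adjusted p 0.0316 in limma). The call was lost when any library other than Lsm14b-KO replicate 1 was left out, with adjusted p up to 0.121 in limma, and the fold change then lay between 0.98 and 1.32.

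Fbxl5 encodes the iron-sensing receptor that directs the iron regulatory protein IRP2 to degradation (chromosome 5, 43744615 to 43821638, minus strand). It had 1.55, 1.79 and 2.07 FPKM in WT and 3.21, 10.0 and 5.51 FPKM in Lsm14b-KO libraries. As for Fbxo30, replicate 2 was the highest and replicate 1 the lowest of the Lsm14b-KO libraries, and all were above WT. The ratio of the group means was 3.46 and the log2 fold change 1.26 (95% interval 0.48 to 2.05, adjusted p 0.0357 in limma). This call also needed every library except Lsm14b-KO replicate 1, with adjusted p up to 0.134 in limma. The gene overlaps 5 annotated genes, 2 of them on the opposite strand.

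Fbxo15, known as a marker of undifferentiated embryonic stem cells (chromosome 18, 84934782 to 84981473, plus strand), fell the most of the tested members. It had 6.87, 5.99 and 5.15 FPKM in WT and 1.71, 0.685 and 0.959 FPKM in Lsm14b-KO libraries. The groups were far apart in relation to their spread, at 6.0 ± 0.859 and 1.12 ± 0.532 FPKM (SD, n = 3), a ratio of 0.186. The log2 fold change was -1.75 (95% interval -2.30 to -1.20, adjusted p 0.0038 in limma). The call held whichever of the 6 libraries was left out (adjusted p 0.000835 to 0.0337 in limma). Timm21 overlaps it on the opposite strand. With 20 pooled oocytes per library, fewer oocytes that hold an mRNA and less of it in each oocyte cannot be told apart.

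Fbxl22, a small leucine-rich repeat member best known from heart muscle (chromosome 9, 66508459 to 66514593, minus strand), had 2.47, 3.37 and 4.33 FPKM in WT libraries. In Lsm14b-KO libraries it had 0.979, 0.599 and 0.835 FPKM, under 1 in all 3. It passed the filter only through WT, so a lower level in Lsm14b-KO was in part built into its being tested. The log2 fold change was -1.27 (95% interval -1.78 to -0.75, adjusted p 0.0089 in limma). It kept its call in 5 of these 6 fits without a library, and the exception, without Lsm14b-KO replicate 3, had an adjusted p of 0.0526 in limma. Herc1 overlaps it on the opposite strand.

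Fbxw4, or dactylin, a WD40 member named after a limb malformation of the mouse (chromosome 19, 45578254 to 45660312, minus strand), was the most abundant of the called members that were lower. It had 18.3, 21.1 and 24.6 FPKM in WT and 9.77, 12.0 and 9.48 FPKM in Lsm14b-KO libraries. The 3 Lsm14b-KO values lay close together and well below WT, with a ratio of means of 0.488. The log2 fold change was -0.97 (95% interval -1.53 to -0.40, adjusted p 0.0304 in limma). The call rests on the scaling: in limma the log2 fold change was -0.31 under TPM scaling (adjusted p 0.478) and -0.63 under quantile normalization (adjusted p 0.103). It was also lost when a WT library, whichever it was, or Lsm14b-KO replicate 3 was left out, with adjusted p up to 0.124 in limma. Gm17018 overlaps it on the opposite strand.

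The libraries' FPKM sums fell from 1141324 to 1244182 in WT to 1029728, 564671 and 676656 in Lsm14b-KO replicates 1, 2 and 3, so the scaling moves every fold change. Rescaling each library to the same sum (TPM) raised the median log2 fold change of all tested genes by 0.475, from -0.075 to 0.40. By construction such a scaling leaves values relative to that median nearly as they were. On that measure Fbxo15 was at -1.67 with the deposited FPKM and at -1.72 under TPM scaling, Fbxl22 at -1.19 and -1.28, and Fbxw4 at -0.89 and -0.71. On the other side Fbxo30 was at 1.34 and 1.52, and Fbxl5 at 1.34 and 1.42. Cul1, which was not called, was at 1.22 and 1.43. Under TPM scaling 5 members were again called (20.6% of all genes were), of which 4 were higher (Cul3, Fbxl5, Fbxo30 and Fbxo36, with 13.0% of all genes higher) and Fbxo15 alone was lower.

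The remaining abundant F-box mRNAs were not called. Fbxo8, whose protein carries a Sec7 domain like that of exchange factors for ARF GTPases, had 42.1, 39.3 and 38.5 FPKM in WT and 26.6, 25.4 and 22.2 FPKM in Lsm14b-KO libraries. Although the groups were clearly apart, the log2 fold change of -0.67 had an adjusted p of 0.0851 in limma, or 0.0178 without Lsm14b-KO replicate 1, and it was 0.00014 under TPM scaling (adjusted p 1.00). Relative to the median of all genes it was -0.60 with the deposited FPKM and -0.40 under TPM scaling. Fbxo34 had 11.1, 11.4 and 13.5 FPKM in WT and 12.2, 51.9 and 20.7 FPKM in Lsm14b-KO libraries. Its order of libraries was that of Cul1 and Fbxo30, with replicate 2 far above the rest and replicate 1 inside the WT range (log2 fold change 0.93, adjusted p 0.178 in limma, or 1.38 and 0.0224 without replicate 1). Fbxo34 has 2 annotated near copies, CT010445.2 and Gm7224, that could share its reads. Fbxo36 had 16.1, 15.3 and 16.1 FPKM in WT and 27.6, 12.6 and 16.3 FPKM in Lsm14b-KO libraries. Unlike Fbxo34 it was highest in Lsm14b-KO replicate 1, and the log2 fold change, 0.17 with an adjusted p of 0.707 in limma, became negative without that library. Fbxo28 had 6.44, 7.18 and 5.79 FPKM in WT and 7.06, 9.93 and 10.0 FPKM in Lsm14b-KO libraries, with a log2 difference of 0.41 and an adjusted p of 0.220 in limma, or 0.56 and 0.0478 without replicate 1.

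Among the other tested F-box mRNAs, 17 had a mean under 10 FPKM and no call, and their fitted log2 fold changes lay between those of Fbxw10 at -0.72 and Fbxo42 at 0.71. They include receptors with well-studied substrates. Fbxo11, whose protein targets BCL6, had 5.28, 4.11 and 5.13 FPKM in WT and 4.63, 9.17 and 7.37 FPKM in Lsm14b-KO libraries. Fbxo7, linked to parkinsonism and mitophagy, had 1.40, 1.22 and 2.40 FPKM in WT and 1.86, 1.60 and 2.42 FPKM in Lsm14b-KO libraries. In both of these the groups overlapped. The 4 F-box members with an unadjusted p under 0.05 and no mention above were Fbxl17, which inspects BTB-domain dimers, Fbxw10, Fbxo42 and Fbxl4. Their log2 fold changes were -0.55, -0.72, 0.71 and 0.61, with an adjusted p of 0.0593, 0.0680, 0.0619 and 0.121 in limma. Fbxo42 and Fbxl4 were under 1 FPKM in every WT library and were tested only through the Lsm14b-KO libraries. A higher level there was thus in part built into their being tested. All 4 were chosen after their values were seen.

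Lsm14b-KO replicate 1 was apart from replicates 2 and 3 for several of the members that those 2 libraries held above WT. Replicates 2 and 3 were both above the WT range for 13 members, and replicate 1 joined them for 6 of these (46.2%, against 61.7% for 1979 such genes among all tested). It lay within the WT range for Cul4b, Fbxl4, Fbxo11, Fbxo28 and Fbxo34, and below it for Cul1 and Fbxl6. Replicates 2 and 3 were both below the WT range for 7 members, and replicate 1 was below it for all 7 (68.9% for 2412 such genes among all tested). This count was made after the values were seen. Without Lsm14b-KO replicate 1, 15 of the 31 members (48.4%) were called in limma, where 45.3% of all tested genes were. Of these, 9 were higher, namely Cul1, Cul4b, Cul5, Fbxl5, Fbxo11, Fbxo28, Fbxo30, Fbxo34 and Fbxo42. The 6 lower ones were Fbxl17, Fbxl22, Fbxo15, Fbxo8, Fbxw10 and Fbxw4. Of the 15, Cul5 and Fbxo42 were tested only through the Lsm14b-KO libraries and Fbxl22 only through WT, so their direction was in part built in.

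The summed FPKM of the 69 members showed the same division. It came to 194, 193 and 216 in WT, and to 187, 393 and 298 in the Lsm14b-KO libraries in replicate order. As a share of all FPKM it was 0.0156% to 0.0189% in WT, 0.0181% in Lsm14b-KO replicate 1, and 0.0696% and 0.0441% in replicates 2 and 3. Cul1 alone made up 19.1%, 19.3% and 25.9% of the members' sum in WT and 18.2%, 47.0% and 45.4% in Lsm14b-KO libraries. Without Cul1 the sum was 155 to 160 FPKM in WT and 153, 208 and 163 FPKM in Lsm14b-KO libraries, so most of the excess in replicate 3 was Cul1. Members above 0 numbered 50 to 52 in WT and 50, 59 and 57 in Lsm14b-KO libraries, the last 2 being also those with the highest estimated depth.

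The 38 members that were not tested had maxima of at most 0.993 FPKM. Among them were receptors that are prominent in other cells. Fbxw7, the receptor for cyclin E and MYC, had 0.219, 0.320 and 0.0709 FPKM in WT and 0.110, 0.525 and 0.471 FPKM in Lsm14b-KO libraries. Fbxw11, or beta-TrCP2, had 0, 0.339 and 0.0625 FPKM in WT and 0.969, 0.694 and 0.504 FPKM in Lsm14b-KO libraries. Its groups did not overlap, as was also the case for Fbxl21, Fbxo46 and Fbxw5, all above WT, and for Fbxo31, below it. Of all genes above 0 but under 1 FPKM in every library, the groups did not overlap for 14.9%, and of the 30 such members for 5. These 5 were picked by their values, and the number of fragments behind levels this low is unknown. Fbxl16, Fbxo2, Fbxo4, Fbxo24, Fbxo27, Fbxo39 and Fbxo44 were, like Cul9, listed at 0 in all 6 libraries, which in such a table can also be a failed estimate. FBXO2 and FBXO27 are F-box proteins that bind glycoproteins.

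Partner genes were read from 4 lists of SCF subunits, the NEDD8 pathway, the COP9 signalosome and the adaptors of other cullins. The table holds 74 of the listed genes, of which 46 were tested, with a median log2 fold change of 0.07. Of the 46, 9 were called (19.6%, against 21.6% of all tested genes), 5 higher and 4 lower in Lsm14b-KO oocytes. Among all tested genes 6.38% were called higher and 15.2% lower. The SCF core list had 2 of 8 called, both lower. The NEDD8 list had 3 of 10 called, 1 higher and 2 lower. The COP9 signalosome had 0 of 8 called by limma, with 2 at an unadjusted p under 0.05 (25%, against 39.4% of all tested genes). The adaptors of other cullins had 4 of 20 called, and these 4 were higher. Over the 20 the fitted log2 fold change was positive for 12 and negative for 8.

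Of the subunits that join CUL1 in the SCF ligase, Skp1a and Rbx1 exceeded Cul1 per length of transcript in every WT library, and Rnf7, the alternative RING subunit, did not. Skp1a, the adaptor between CUL1 and the F-box, had 15542, 14798 and 13047 FPKM in WT and 22477, 3662 and 7836 FPKM in Lsm14b-KO libraries. Rbx1, the RING subunit that recruits the ubiquitin-loaded enzyme, had 230, 230 and 127 FPKM in WT and 268, 38.8 and 71.0 FPKM in Lsm14b-KO libraries. Both were highest in Lsm14b-KO replicate 1 and lowest in replicates 2 and 3, the reverse of Cul1. Neither was called, with adjusted p of 0.356 and 0.260 in limma, and the log2 fold change of Skp1a, -0.74, became 0.057 under quantile normalization. Without Lsm14b-KO replicate 1 both were called lower, Skp1a at -1.43 (adjusted p 0.0119 in limma) and Rbx1 at -1.83 (adjusted p 0.0076 in limma). The ratio of Skp1a to Cul1 within a library, which scaling cannot change, was 420, 397 and 233 in WT and 659, 19.8 and 57.8 in Lsm14b-KO replicates 1, 2 and 3. That of Rbx1 to Cul1 was 6.23, 6.16 and 2.28 in WT and 7.85, 0.210 and 0.524 in Lsm14b-KO libraries. In replicates 2 and 3 Cul1 thus exceeded Rbx1 per length of transcript, whereas in the 3 WT libraries and in replicate 1 the order was the opposite. These ratios were chosen after the values were seen and carry no test. Unlike a scaling, a length-dependent difference between libraries can change them. The transcripts of Cul1, Skp1a and Rbx1 have 3161, 1440 and 1675 nt. Under the length and GC correction their log2 fold changes were 1.14, -0.13 and -0.75.

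Cks1b, the cofactor with which the F-box protein SKP2 recognizes p27 (chromosome 3, 89415472 to 89418383, minus strand), had 4510, 4321 and 4133 FPKM in WT and 2196, 613 and 989 FPKM in Lsm14b-KO libraries. All 3 Lsm14b-KO values were below WT, and it fell by 1.97 on the log2 scale (adjusted p 0.0220 in limma). Glmn, or glomulin, which binds RBX1 and blocks its access to the ubiquitin-conjugating enzyme (chromosome 5, 107548967 to 107597888, minus strand), had 60.7, 58.2 and 49.3 FPKM in WT and 36.9, 13.3 and 15.8 FPKM in Lsm14b-KO libraries. It fell by 1.44 on the log2 scale (adjusted p 0.0378 in limma), and 3 annotated genes overlap it on the opposite strand. For both genes replicate 1 was nearest to WT among the Lsm14b-KO libraries. Cks1b kept its call only without Lsm14b-KO replicate 1 or 2 and Glmn only without replicate 1, with adjusted p up to 0.101 and 0.145 in limma when another library was left out. Under TPM scaling Cks1b was still called (log2 fold change -1.28, adjusted p 0.0180 in limma) and Glmn was not (-0.78, adjusted p 0.0643).

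In the NEDD8 pathway the strongest falls were in Senp8 and Uba3. Senp8 encodes the protease that matures NEDD8 and strips it from proteins other than cullins (chromosome 9, 59734259 to 59750710, minus strand). It had 204, 201 and 175 FPKM in WT and 57.7, 20.4 and 27.1 FPKM in Lsm14b-KO libraries. It fell by 2.57 on the log2 scale (adjusted p 0.0060 in limma), and stayed called whichever of the 6 libraries was left out. Gm49446 is a near copy of part of its transcript. Uba3, the catalytic subunit of the NEDD8-activating enzyme (chromosome 6, 97183670 to 97205647, minus strand), had 8.89, 7.78 and 7.02 FPKM in WT and 2.89, 1.63 and 1.66 FPKM in Lsm14b-KO libraries. It fell by 1.56 on the log2 scale (adjusted p 0.0052 in limma), likewise called in all 6 of these fits and under TPM scaling (adjusted p 0.0265). Nedd8 itself had 1785, 1730 and 1494 FPKM in WT and 2365, 622 and 1077 FPKM in Lsm14b-KO libraries. It was not called (log2 fold change -0.51, adjusted p 0.426 in limma), and the sign was positive under TPM scaling, quantile normalization and the length and GC correction. Without Lsm14b-KO replicate 1 it was called lower (-1.02, adjusted p 0.0198 in limma). Dcun1d1, a cofactor of neddylation, had 143, 127 and 146 FPKM in WT and 127, 164 and 172 FPKM in Lsm14b-KO libraries, with an adjusted p of 0.715 in limma. Tes3-ps is a near copy of its transcript that could share its reads. Its relative Dcun1d4 was called higher, from 0.195 to 0.294 FPKM in WT to 0.740 to 1.16 FPKM in Lsm14b-KO libraries (adjusted p 0.0456 in limma), although it was under 1 FPKM in WT and so was tested only through the group where it is high. The call held only without Lsm14b-KO replicate 1 when a library was left out (adjusted p up to 0.105 in limma), and it was lost under the length and GC correction (adjusted p 0.0610 in limma).

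**Figure D4:**
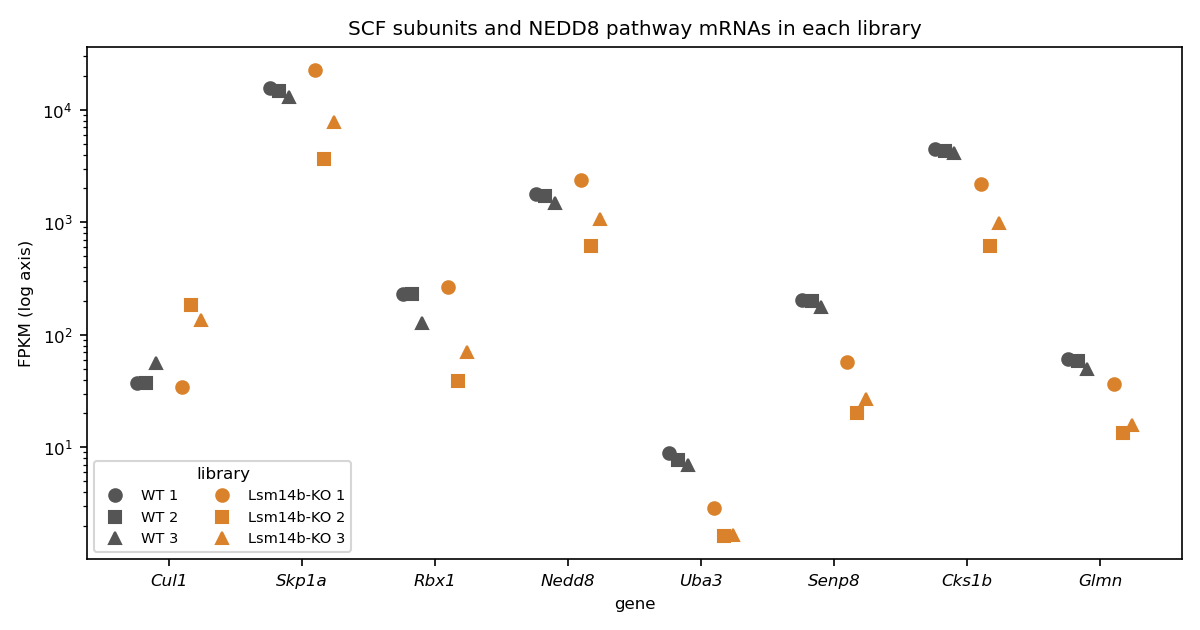
FPKM on a log axis of Cul1 and 7 partner mRNAs in each of the 6 libraries. Grey symbols are WT and orange symbols Lsm14b-KO, with circles, squares and triangles for replicates 1, 2 and 3. In Lsm14b-KO replicates 2 and 3 Cul1 lies above WT while Skp1a, Rbx1 and Nedd8 lie below it, and for Uba3, Senp8, Cks1b and Glmn all 3 Lsm14b-KO libraries lie below WT.

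The called adaptors of other cullins were all higher in Lsm14b-KO oocytes. Crbn, the CUL4 receptor that binds thalidomide, had 7.80, 8.27 and 9.52 FPKM in WT and 20.7, 15.2 and 13.7 FPKM in Lsm14b-KO libraries (log2 fold change 0.86, adjusted p 0.0450 in limma). It was highest in replicate 1, unlike Cul1. The DCAF receptors Dcaf11 and Dcaf7 stood at 0.412 to 0.857 and 0.963 to 1.45 FPKM in WT and at 2.09 to 2.36 and 2.56 to 2.91 FPKM in Lsm14b-KO libraries, with adjusted p of 0.0123 and 0.0224 in limma. Dcaf7 was not called under the length and GC correction (adjusted p 0.0740 in limma). Klhl12, a BTB adaptor of CUL3, stood at 0.416 to 0.600 FPKM in WT and 1.16 to 2.47 FPKM in Lsm14b-KO libraries (log2 fold change 0.96, adjusted p 0.0275 in limma). Dcaf11 and Klhl12 were under 1 FPKM in every WT library and were tested only through the Lsm14b-KO libraries, so a higher level there was in part built in. Crbn, Dcaf11 and Dcaf7 each overlap annotated genes on the opposite strand. When a library was left out, Crbn, Dcaf7 and Klhl12 kept their calls only without Lsm14b-KO replicate 1, and Dcaf11 only without WT replicate 1 or Lsm14b-KO replicates 1 or 2. Their adjusted p otherwise reached 0.158, 0.0969, 0.118 and 0.0622 in limma. The most abundant gene of that list, Tceb1, which encodes elongin C, was not called, with 12555, 11694 and 10147 FPKM in WT and 12387, 3950 and 5377 FPKM in Lsm14b-KO libraries (adjusted p 0.171 in limma, or 0.0034 without Lsm14b-KO replicate 1). Dcaf13 had 92.2 ± 13.9 FPKM in WT and 53.0 ± 31.9 FPKM in Lsm14b-KO libraries (SD, n = 3, adjusted p 0.143 in limma, or 0.0049 without Lsm14b-KO replicate 1). Cops2 and Cops4, the most abundant signalosome subunits, were at 65.5 ± 2.79 and 79.8 ± 4.81 FPKM in WT and at 66.5 ± 10.9 and 70.4 ± 11.8 FPKM in Lsm14b-KO libraries (SD, n = 3), with adjusted p of 0.980 and 0.615 in limma.

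The transcripts of the tested members were long, with a median length of 3728 nt against 2259 nt for all tested genes with an annotated transcript. Across the 31 members Spearman's rho of the log2 fold change with length was 0.29, and across 6321 tested genes it was 0.36, given as a description over genes that share the same 6 libraries. With GC content rho was -0.38 over the members and -0.020 over all tested genes. After a correction of each library for length and GC content 7 members (22.6%) were called in limma, as were 22.7% of all genes with a transcript. These were the 5 called before together with Fbxo36 (log2 fold change 0.79, adjusted p 0.0315), which was higher, and Fbxl17 (-0.77, adjusted p 0.0274), which was lower.

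LSM14B binds RNA, and the study mapped its binding sites in oocytes by LACE-Seq, a list that was not used here. The hexamer CCUCUC, which the study reports as the most enriched, was looked up on the sense strand of the annotated transcripts as CCTCTC. At least 1 copy was present in 19 of the 31 tested members (61.3%) and in 54.1% of all tested genes with a transcript. A longer transcript has more room for a copy, and the members' transcripts were longer. Per kb of transcript the median was 0.27 copies in the tested members and 0.23 in all tested genes. Of the 5 called members, Fbxl22 held 3 copies and Fbxw4 held 1, and the letters were not found in the transcripts of Fbxo30, Fbxl5 and Fbxo15, nor in that of Cul1. The 4 sites are shown because they are all those in the called members, with 10 bases on each side, 5′ to 3′ on the minus strand of GRCm38 and the hexamer in capitals. They lie at chr9:66514474-66514479 in the coding part of exon 1 of Fbxl22, at chr9:66511188-66511193 and chr9:66511164-66511169 in the 3′ UTR in its exon 2, and at chr19:45578754-45578759 in the 3′ UTR in exon 9 of Fbxw4, in that order.
Fbxl22 coding: gccggaggagCCTCTCcaggacttgc
Fbxl22 3′ UTR, upstream: tggccacggcCCTCTCagttcaccca
Fbxl22 3′ UTR, downstream: cagcagcctcCCTCTCtaggcagggg
Fbxw4 3′ UTR: tactcagggaCCTCTCctgcctggca
Of the called members, both genes with the letters were lower in Lsm14b-KO oocytes, and so was Fbxo15, which lacks them. Beyond the called members the direction was mixed. Spearman's rho of the log2 fold change with the number of copies was -0.27 over the 31 tested members. Over 6321 tested genes it was 0.18, of the opposite sign. A match describes the sequence and is not evidence of binding, and a missing match is not evidence that binding is absent.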

How the data were processed

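Per the labels, 6 libraries were made from 20 oocytes each by Smart-seq2 amplification and sequenced, 3 of WT and 3 of Lsm14b-KO GV-stage FGOs. Per the submitters' processing notes, the reads were aligned to mm10 with TopHat2 (2.0.13) and FPKM were computed with Cufflinks (2.2.1), Cuffnorm and Cuffdiff. The annotation is not given in the sources used here. The authors deposited FPKM of 24255 genes with 1 column per library, and a fold change, p-value and q-value of their own comparison, which were not used. A spreadsheet had turned 27 symbols into dates, which could not be named. The table holds no counts, so no count model was fitted, and depth was estimated only in relative terms.

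FPKM were transformed to log2(FPKM + 1), which understates the change of low genes. The 6398 genes that reached 1 FPKM in at least 1 library entered a fit with limma 3.58.1 (R 4.3.3) in which genotype was the single term and the variance prior followed an intensity trend. Tests were two-sided, with Benjamini-Hochberg adjustment over all 6398. The exact permutation test of 3 against 3 libraries cannot go below a two-sided p of 0.10 and was not used for calls. Groups and replicate numbers came from the titles and genotype labels. The samples are not paired by design (see the replicate block in the closing section). Coordinates, overlaps and transcripts were taken from GENCODE vM21 on GRCm38, the assembly of mm10, and near copies (at least 95% identity over 200 nt) from blastn 2.17.0. Of the members, 17 share their deposited locus with another gene. Alternatives were other pseudocounts, filters and scalings, no intensity trend, a replicate block, and leaving out each library. The fit was also run on simulated data, with independent libraries and the same spread in both genotypes. Those data lack the unequal Lsm14b-KO libraries, so the run cannot tell how reliable the calls are here.

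The genes described singly were Lsm14b, every cullin, the called F-box members, the 6 F-box members with the highest mean, and of each partner list the called genes and the 2 with the highest mean. Rnf7, Rbx1, Fbxl4, Fbxl17, Fbxo7, Fbxo11, Fbxo42, Fbxw7, Fbxw10 and Fbxw11 were described outside this rule, chosen after their values were seen. The members, lists and rules were chosen with earlier results of these data known. The values of 1 tested member are not reported here, although it is included in the counts.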

Additional observations from a re-analysis of the deposited data

How the results depend on the processing

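With all 6 libraries 5 members were called, 2 higher and 3 lower, and 9 partner genes. Without a filter on low values 2 of 61 members (0 higher) and 3 of 70 partner genes were called by limma, and 5.03% of all genes. TPM scaling gave 4 higher members and 1 lower, and raised the members' median log2 fold change to 0.62. It turned the split of all calls from 29.5% higher to 63.2% higher, and the median of all genes also rose by 0.144 under quantile normalization and by 0.179 under the length and GC correction. Leaving out 1 library gave 1 to 15 called members (0 to 9 higher, 1 to 6 lower) and 2 to 24 called partner genes, while 4.92% to 45.3% of all genes were called in these fits. The lowest count of members was without Lsm14b-KO replicate 3, the highest without replicate 1. The count was 2 without each WT library in turn and 3 without Lsm14b-KO replicate 2. The replicate numbers pair the libraries neither by the labels nor by the data (correlations of same-numbered deviations 0.19, -0.13 and 0.018, with WT replicate 3 closest to Lsm14b-KO replicate 2 at 0.31). With the replicate block 4 members were called, without Fbxw4 (adjusted p 0.0607 in limma), and 7 partner genes, without Crbn (adjusted p 0.0818) and Dcun1d4 (adjusted p 0.0792), and 1244 of all genes in place of 1383. The cause of these changes was not tested.

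Over the 31 tested of the 34 genes described singly and 15 alternatives, 463 values were obtained, of which 370 kept direction and side of the threshold, 67 lost the call, 14 gained it and 12 changed sign. The sign changes were in genes that were not called. They were Fbxo8 (0.00014), Nedd8 (0.18) and Cops4 (0.50) under TPM scaling, Skp1a (0.057), Nedd8 (0.37) and Cops4 (0.40) under quantile normalization, and Nedd8 (0.35) and Cops4 (0.052) under the length and GC correction. Among fits without 1 library they were Fbxo36 (-0.13) and Cops2 (range -0.086 to 0.15). Pseudocounts of 0.1 and 0.01 and a minimum mean of 1 FPKM changed no call among the members. Depth was estimated only relatively, and 38 of 69 members lay below 1 FPKM in every library, of which 30 entered only the fit without a filter.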
